A study of Drosophila melanogaster with 6 samples.

Results

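The endoplasmic reticulum (ER) stress genes described here are 10 genes, chosen by name, that encode the ER chaperones, the sensors of the unfolded protein response and its transcription factors. All 10 were found by symbol among the 13858 genes of the expression table. They are the chaperones *Hsc70-3*, *Gp93* and *Calr*, the disulphide-forming enzymes *Pdi* and *Ero1L*, the sensors *PEK*, *Ire1* and *Atf6*, and the transcription factors *crc* and *Xbp1*. Only *Ero1L*, the oxidase that recharges Pdi, passed the test, with 21.8 ± 1.73 FPKM in knockdown larvae and 13.4 ± 0.953 FPKM in driver control larvae (SD, n = 3 libraries each). The remaining 9 genes had fold changes between 0.864 and 1.30, and none of them passed. SE below is the standard error of a log2 fold change.

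RNA was taken from whole female larvae of the last instar (L3b). In the 3 *Dctn1* knockdown libraries, *Act5C*-GAL4, a driver active in nearly all cells, switched on the inverted repeat transgene *Dctn1-IR* (Vienna stock 3785), which makes double-stranded RNA against *Dctn1*, the gene for the p150 subunit of the dynein partner complex dynactin. The 3 driver control libraries, labelled as the actin control, came from larvae with the same GAL4 driver and no RNAi transgene, and both groups were raised at 25°C and fed on grape agar with yeast. Each library pooled 12 to 15 larvae aged 96 h, a time counted from hatching in the labels and from egg laying in the paper, and the p-values measure the spread between these pools. A single RNAi line was used, so effects of that insertion cannot be told apart from loss of *Dctn1*. Because whole larvae were ground up, fewer cells of a type and less RNA per cell cannot be told apart.

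The ER folds secreted and membrane proteins, and the unfolded protein response adjusts its folding capacity when unfolded proteins build up. Hsc70-3, the fly BiP, is an Hsp70 chaperone that also keeps the sensors quiet. When released, PEK phosphorylates eIF2alpha and thereby favours translation of crc, the fly ATF4. Ire1 cuts the *Xbp1* mRNA so that an active transcription factor is made, while Atf6 is cleaved in the Golgi to free its own transcription factor domain. Much of this control acts on translation, splicing and cleavage, and FPKM values summed per gene do not measure those steps. In secretory tissues such as the salivary gland, gut and fat body these genes are used heavily even without stress.

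The deposited values are FPKM, which scale the fragments assigned to a gene by its transcript length and by the size of the library, so levels can be compared between genes per unit length. Depth per library is unknown, as FPKM values carry no totals, and the FPKM sums lay between 94.2% and 107% of their mean. *Dctn1*, listed as DCTN1-p150, was at 7.33, 7.96 and 6.85 FPKM in knockdown libraries 1, 2 and 3, and at 15.3, 15.2 and 12.5 FPKM in control libraries 2, 3 and 4, with no overlap (log2 fold change -0.94, SE 0.13, adjusted p = 0.00737). Differences were tested with limma on log2(FPKM + 0.1) for 9978 genes, and a gene passed at an adjusted p under 0.05. Of these, 670 passed (505 higher and 165 lower in knockdown), or 75.4% higher among those that passed. This share was 50.3% after median-of-ratios scaling, which divides each library by its median ratio to the geometric mean of all libraries. The median log2 fold change over all genes was 0.16 and moved to -0.01 with that scaling. Differences are therefore also given relative to this median. Muscle, neuron, fat body, midgut and salivary gland markers were present in every library. Of 5 testis genes, 4 were at 0.14 FPKM or less in every library, and *Mst87F* reached 4.04 FPKM.

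Among the 10 genes, 1 passed the test, where 6.71% of all genes did. It was the 1 higher gene, against 5.06% higher over all genes, while 0 members were lower in limma, against 1.65%. An unadjusted p under 0.05 was found for 2 of the 10, against 25.3% of all genes (2522 of 9978). None of the 10 also had an absolute log2 fold change above 1, as 2.91% of all genes did. Their median log2 fold change was 0.11, against 0.16 over all genes tested, and 5 of the 10 lay above that overall median. Relative to it, these 5 were *Ero1L* at 0.53, *Gp93* at 0.21, *crc* at 0.14, *Atf6* at 0.02 and *Calr* at 0.01. Below it lay *Pdi* at -0.11, *Xbp1* at -0.13, *PEK* at -0.26, *Ire1* at -0.33 and *Hsc70-3* at -0.37. In 3 of the 10 the groups did not overlap, namely *Ero1L* and *crc* on the higher side and *Ire1* on the lower side. Over all genes this held for 33.5%, with 28.8% higher and 4.66% lower. With 10 genes, these counts were near the shares of the whole table.

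**Figure D1:**
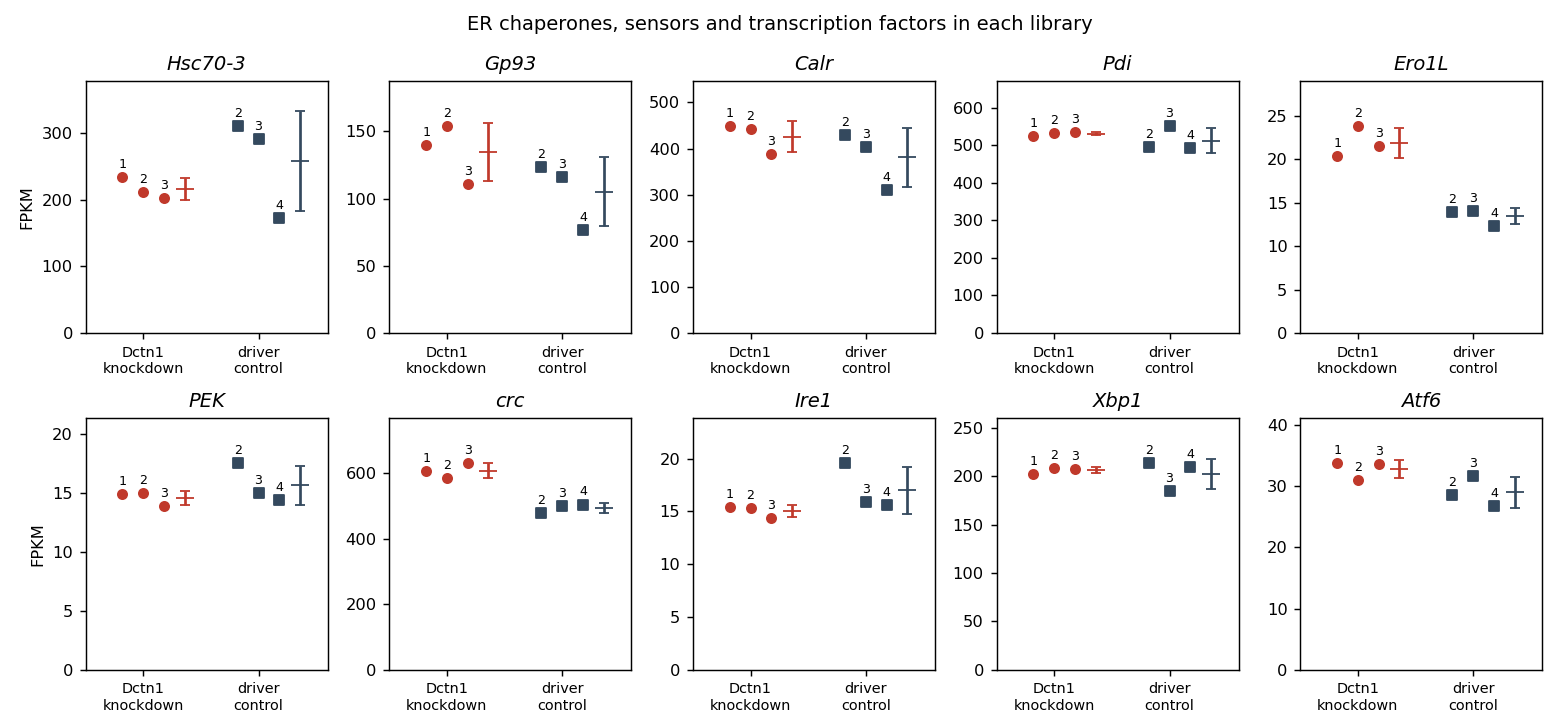
FPKM (vertical axis, from 0) of each of the 10 genes in the 3 *Dctn1* knockdown libraries (circles) and the 3 driver control libraries (squares), each point labelled with its replicate number, with the group mean and SD beside the points. *Ero1L* and *crc* sit higher and *Ire1* lower in every knockdown library, and control library 4 is the lowest point for *Hsc70-3*, *Gp93* and *Calr*.

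The 10 genes covered a wide range of levels. *crc* was the highest, with a mean of 551 FPKM over the 6 libraries, followed by *Pdi* at 522 and *Calr* at 404 FPKM. The other chaperones and *Xbp1* were in the next tier, with *Hsc70-3* at 237, *Xbp1* at 204 and *Gp93* at 120 FPKM. The sensors were far lower, at 30.9 FPKM for *Atf6*, 16.02 FPKM for *Ire1* and 15.1 FPKM for *PEK*, and *Ero1L* stood beside them at 17.6 FPKM. Neighbours in this order were not all separated, since *Hsc70-3* overlapped with *Xbp1* in both groups. The ranges of *Ire1* and *PEK* overlapped too, although *Ire1* was the higher within every library. *crc* lay above *Pdi* in every knockdown library and overlapped with it in the controls. *Ero1L* lay above *Ire1* and *PEK* in every knockdown library and below both in every control library. In the RefSeq Release 6 annotation the genes lie on 5 chromosome arms, and coordinates are not given because the build behind the table is not named. *Hsc70-3* (gene ID 32133) lies on X and *crc* (47767) on 2L, while *Xbp1* (44226) and *Atf6* (35480) lie on 2R. *Pdi* (39651) and *Ero1L* (38500) lie on 3L, and *Gp93* (43354), *Calr* (41166), *PEK* (40653) and *Ire1* (42358) on 3R.

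*Ero1L* encodes the ER oxidase that passes electrons from Pdi to oxygen, so that Pdi can form new disulphide bonds. Its FPKM was 20.3, 23.7 and 21.5 in knockdown libraries 1, 2 and 3, against 13.96, 14.02 and 12.3 in control libraries 2, 3 and 4. The lowest knockdown library lay well above the highest control. Its log2 fold change came to 0.70 (SE 0.12, 95% confidence interval 0.42 to 0.97, adjusted p = 0.0161), a 1.62-fold difference, or 0.53 above the median of all genes. By p-value it ranked 232 among the 9978 genes. After median-of-ratios scaling the log2 fold change was 0.52 (adjusted p = 0.0518). The adjusted p was 0.0758 without knockdown library 2, 0.0508 without knockdown library 3 and 0.0553 without control library 2, so that the call did not survive in 3 of 6 such fits, although the log2 fold change stayed between 0.64 and 0.75.

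*Pdi*, the protein disulphide isomerase that Ero1L recharges, differed little between libraries. It was at 525, 534 and 534 FPKM in the knockdown libraries and at 495, 550 and 493 FPKM in the control libraries, so the groups overlapped. Its log2 fold change was 0.05 (95% confidence interval -0.22 to 0.33, adjusted p = 0.812). For each 100 FPKM of *Pdi* there were 3.87, 4.45 and 4.02 FPKM of *Ero1L* in the knockdown libraries and 2.82, 2.55 and 2.503 FPKM in the control libraries. This ratio, chosen after the values were seen, does not depend on how the libraries are scaled, and its groups did not overlap. Of the other tested genes, 21.5% had a ratio to *Pdi* that was higher in every knockdown library, and 5.43% one that was lower. An antisense RNA gene, *asRNA:CR45396*, covers 21.5% of the exon length of *Pdi* and was not matched in the table by its symbol. Whether the reads were counted by strand is not given in the sources used here.

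*Hsc70-3* is the fly BiP, whose transcript is widely used as a readout of ER stress. It was at 234, 212 and 203 FPKM in the knockdown libraries, against 310, 292 and 172 FPKM in control libraries 2, 3 and 4. The knockdown values lay close together, between the low control library 4 and the high control libraries 2 and 3. For this gene the log2 fold change was -0.21 (SE 0.22, 95% confidence interval -0.73 to 0.31, adjusted p = 0.583). The controls differed among themselves by 1.80-fold, a range larger than that of 88.7% of all genes tested, whereas the knockdown libraries differed by 1.15-fold. Without control library 4 the log2 fold change was -0.48 (adjusted p = 0.1001), which is the fit where it lay furthest from 0 among those that left out a library. The upper bound of 0.31 on the log2 scale applies to whole larvae, and a rise of *Hsc70-3* confined to some tissue was not tested.

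*Gp93* encodes the Hsp90 chaperone of the ER and had the higher mean in knockdown larvae. It was at 140, 154 and 111 FPKM in the knockdown libraries and at 124, 116 and 76.4 FPKM in the control libraries, with overlap, as knockdown library 3 lay below control libraries 2 and 3. Its log2 fold change of 0.37 (95% confidence interval -0.12 to 0.86, adjusted p = 0.309) was 0.16 without control library 4 (adjusted p = 0.626). *Calr* encodes calreticulin, a calcium-binding lectin that holds immature glycoproteins. Its levels were 448, 442 and 388 FPKM in the knockdown libraries and 430, 404 and 309 FPKM in the control libraries, which overlapped. The log2 fold change was 0.17 (95% confidence interval -0.19 to 0.54, adjusted p = 0.523), only 0.01 above the median of all genes.

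Control library 4 was the lowest of the 6 libraries for 6 of the 10 genes, namely *Hsc70-3*, *Gp93*, *Calr*, *Pdi*, *Ero1L* and *Atf6*, as it was for 49.8% of all genes tested. In that library *Hsc70-3* was at 57.3%, *Gp93* at 63.8% and *Calr* at 74.2% of the mean of control libraries 2 and 3. The median gene differed by -0.21 on the log2 scale between the same libraries. After median-of-ratios scaling the differences were -0.60 for *Hsc70-3*, -0.44 for *Gp93* and -0.22 for *Calr*. *Pdi* was at 94.4%, *Ero1L* at 88.2% and *Atf6* at 88.7% of the mean of control libraries 2 and 3, and *Xbp1* and *crc* were at 105% and 103%. Among the other ER genes, control library 4 was the lowest for 13 of 16 folding factors, 14 of 20 translocon and signal recognition genes and 7 of 7 oligosaccharyltransferase subunits. The same held for 12 of 13 degradation genes, 6 of 8 COPII genes, 7 of 14 genes of the eIF2alpha list and 30 of 52 genes with ER stress terms.

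**Figure D2:**
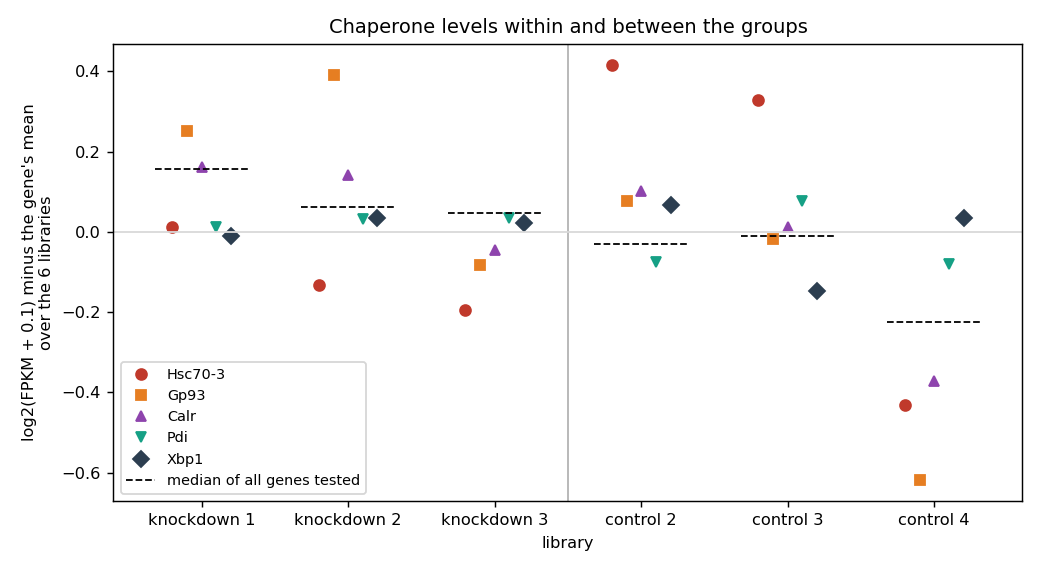
Log2(FPKM + 0.1) of *Hsc70-3*, *Gp93*, *Calr*, *Pdi* and *Xbp1* in each library, minus the mean of the gene over the 6 libraries (vertical axis), with the 3 knockdown libraries left of the vertical line and the 3 control libraries right of it. Dashed lines mark the median of all 9978 genes in that library, below which *Hsc70-3*, *Gp93* and *Calr* fall in control library 4 while *Pdi* and *Xbp1* lie above it.

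The glue genes of the salivary gland, a tissue that secretes massively at this stage, also varied between the control libraries. The summed level of 6 glue genes (*Sgs1*, *Sgs3*, *Sgs4*, *Sgs5*, *Sgs7* and *Sgs8*) was 8932, 2771 and 9228 FPKM in the knockdown libraries and 23739, 25402 and 8424 FPKM in control libraries 2, 3 and 4. Control libraries 2 and 3 were the highest of the 6 both for this sum and for *Hsc70-3*, and none of the glue genes was at 0 in any library. The orders were not the same, as the lowest glue sum was in knockdown library 2 and the lowest *Hsc70-3* in control library 4. *Sgs7* was the largest part of the sum in control libraries 2 and 3, at 13245 and 14445 FPKM. *Sgs4* alone had a log2 fold change above 0, at 0.44. None of the 6 glue genes passed the test, and 3 had an unadjusted p under 0.05, against 25.3% of all genes. Of 9 midgut enzyme genes, 6 were lower in the knockdown with an adjusted p under 0.05 in limma, against 1.65% of all genes. Their sums were 6984 to 8616 FPKM in knockdown and 10825 to 16720 FPKM in control libraries. With each library left out in turn, *betaTry*, *Amy-p* and *Amy-d* passed in all 6 fits, *Jon25Bi* in 2, and *Jon99Ci* and *LysB* in 1 each. The sum of 6 fat body genes ranged from 21255 to 26080 FPKM in knockdown and from 20902 to 22131 FPKM in control libraries. Of these 6 genes, 3 had a log2 fold change above 0, against 7404 of the 9978 genes tested. Only 1 passed, *Lsp1beta* (limma, adjusted p = 0.0360), where 5.06% of all genes passed as higher. *Lsp1beta* passed in 1 of the 6 fits that left out a library and not after median-of-ratios scaling (adjusted p = 0.179). The sums hide opposite differences, as log2 fold changes ran from -2.67 for *Fbp1* to 1.21 for *Lsp1alpha*. For 3 of the 6 every knockdown library was above every control, against 28.8% of all genes. The part of these tissues in the levels of the ER genes was not tested.

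*PEK* and *crc* form the arm of the response that acts through eIF2alpha. *PEK*, the kinase, was at 14.9, 15.00 and 13.9 FPKM in the knockdown libraries and at 17.5, 14.98 and 14.4 FPKM in the control libraries, with overlap. Its log2 fold change was -0.09 (95% confidence interval -0.37 to 0.19, adjusted p = 0.661). *crc*, the transcription factor also named cryptocephal for its role in moulting and metamorphosis, was at 607, 584 and 631 FPKM in the knockdown libraries, against 478, 499 and 505 FPKM in the control libraries. Each knockdown library lay above each control library, and its log2 fold change came to 0.30 (SE 0.12, 95% confidence interval 0.03 to 0.57). It did not pass the test (adjusted p = 0.159, unadjusted p = 0.0329), and after median-of-ratios scaling it was 0.12 (adjusted p = 0.655). The annotation places another gene, *CG46314*, on the same strand over 73.5% of the exon length of *crc*. The table lists *CG46314* at 15.3, 8.5 and 13.6 FPKM in the knockdown libraries and at 10.5, 17.5 and 8.87 FPKM in the control libraries, and how reads were divided between both genes is uncertain.

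*Ire1* and *Xbp1* form the splicing arm. *Ire1*, the kinase and nuclease, was at 15.4, 15.3 and 14.3 FPKM in the knockdown libraries, against 19.6, 15.9 and 15.6 FPKM in the control libraries. Every knockdown library lay below every control, but the gap to the nearest control was narrow and control library 2 stood apart from the rest. The log2 fold change was -0.17 (95% confidence interval -0.47 to 0.12, adjusted p = 0.435), and it was -0.07 without control library 2. On the opposite strand *MICU3* overlaps 12.3% of the exon length of *Ire1*. *Xbp1* was at 202, 209 and 207 FPKM in the knockdown libraries and at 213, 184 and 209 FPKM in the control libraries. Knockdown values lay within the range of the controls, with a log2 fold change of 0.03 (95% confidence interval -0.25 to 0.31, adjusted p = 0.898), whose sign was negative after median-of-ratios scaling (-0.15). Both spliced and unspliced *Xbp1* mRNA count towards this value. *Atf6*, the membrane-bound transcription factor, was at 33.8, 31.1 and 33.6 FPKM in the knockdown libraries and at 28.6, 31.7 and 26.7 FPKM in the control libraries, with overlap, and its log2 fold change of 0.18 (95% confidence interval -0.09 to 0.45, adjusted p = 0.369) equalled the median of all genes to within 0.02.

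**Figure D3:**
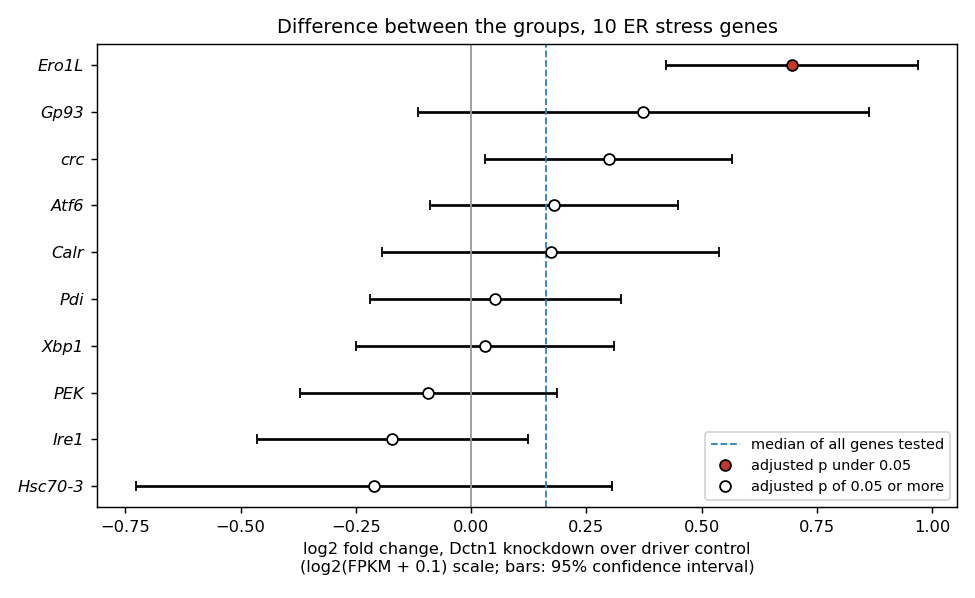
Log2 fold change of *Dctn1* knockdown over driver control (horizontal axis, log2(FPKM + 0.1) scale) for the 10 genes, with 95% confidence intervals from limma. Only *Ero1L*, at 0.70, is filled for an adjusted p under 0.05, and the dashed line at 0.16 marks the median of all genes tested.

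After median-of-ratios scaling 6 of the 10 log2 fold changes were negative and 4 positive, with a median of -0.07, and 0 of the 10 passed the test in limma. Under this scaling the lowest values were -0.39 for *Hsc70-3* (adjusted p = 0.312), -0.35 for *Ire1* (adjusted p = 0.141) and -0.27 for *PEK* (adjusted p = 0.194). *Calr*, *Xbp1* and *Pdi* changed sign and *Atf6* was at 0.00. With and without scaling, the sensors and chaperones did not all lie on one side of 0.

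Other genes that serve the ER were counted in lists by role. Of 78 genes tested in the 6 lists, 3 were higher and 1 lower in knockdown larvae, or 5.13%, against 6.71% of all genes. Their median log2 fold change was 0.08, and 72 of the 78 had an absolute log2 fold change under 0.5, as did 82.2% of all genes. The 3 higher genes were all among the 16 folding factors tested, and at least 2 of them work directly with Hsc70-3. Among these 16, the groups did not overlap for 5 on the higher and 3 on the lower side. Over all genes the shares were 28.8% and 4.66%.

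**Figure D4:**
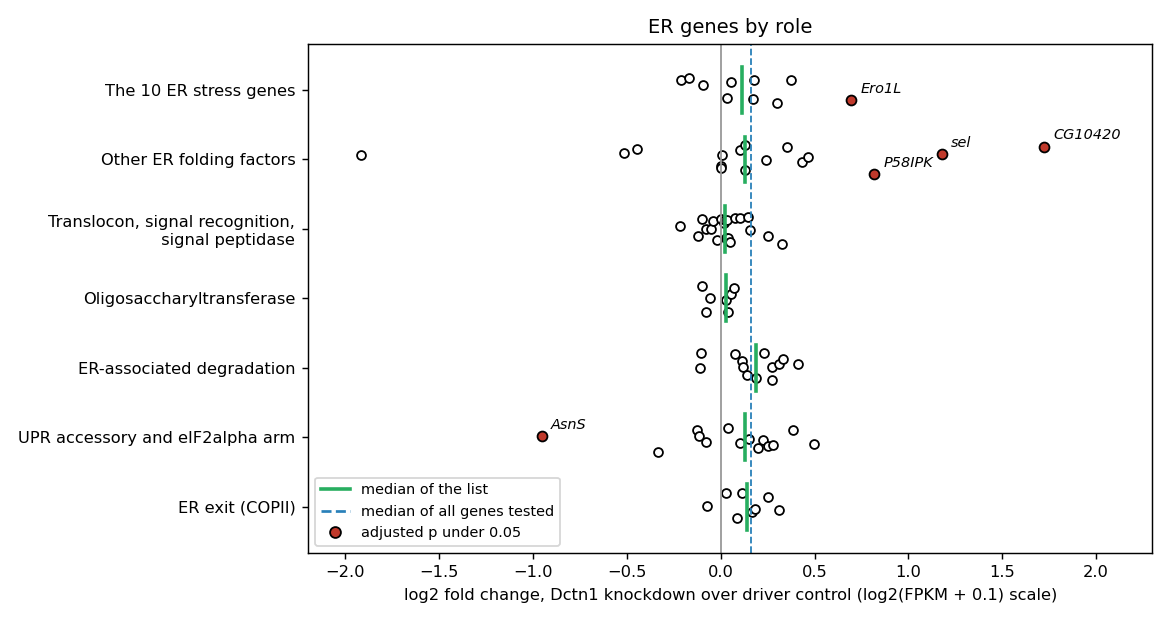
Log2 fold change of *Dctn1* knockdown over driver control (horizontal axis) for each tested gene of the 10 ER stress genes and of 6 other ER lists (rows), with vertical scatter for visibility only. Filled and named points have an adjusted p under 0.05, green bars mark the median of each list, and the dashed line marks the median of all genes, 0.16.

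*CG10420* is the fly *Sil1* in RefSeq, a nucleotide exchange factor that lets Hsc70-3 release its clients. It was at 12.3, 13.7 and 6.84 FPKM in knockdown libraries 1, 2 and 3, and at 4.08, 3.25 and 2.25 FPKM in control libraries 2, 3 and 4. The groups did not overlap, although the knockdown libraries themselves differed by 2.00-fold. Its log2 fold change, 1.72 (SE 0.31, adjusted p = 0.0244), was the largest among these lists. The adjusted p was 0.0879 without knockdown library 1, 0.0607 without knockdown library 2, 0.0762 without control library 3 and 0.0737 without control library 4. After median-of-ratios scaling *CG10420* still passed (1.55, adjusted p = 0.0408).

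*P58IPK* encodes a J-domain protein of the ER lumen that delivers unfolded clients to Hsc70-3. Its FPKM was 42.8, 46.9 and 35.0 in the knockdown libraries, against 26.7, 26.1 and 18.3 in the control libraries, with no overlap. Its log2 fold change came to 0.82 (SE 0.18, adjusted p = 0.0388), and 0.64 after median-of-ratios scaling (adjusted p = 0.0718). It passed in 1 of the 6 fits that left out a library, the one without control library 3. The adjusted p was 0.112 without knockdown library 1, 0.128 without knockdown library 2, 0.0558 without knockdown library 3, 0.0756 without control library 2 and 0.0754 without control library 4.

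Set against Hsc70-3 itself, both partners were higher in every knockdown library than in any control, as were the chaperones *Gp93* and *Calr*. For each 100 FPKM of *Hsc70-3* there were 18.3, 22.2 and 17.3 FPKM of *P58IPK* in the knockdown libraries and 8.60, 8.95 and 10.6 FPKM in the control libraries. *CG10420* reached 5.24, 6.46 and 3.37 FPKM per 100 FPKM of *Hsc70-3* in the knockdown libraries and 1.32, 1.12 and 1.31 FPKM in the control libraries. These ratios were chosen after the values were seen, and 27.7% of the other tested genes had a ratio to *Hsc70-3* that was higher in every knockdown library, and 2.19% one that was lower.

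**Figure D5:**
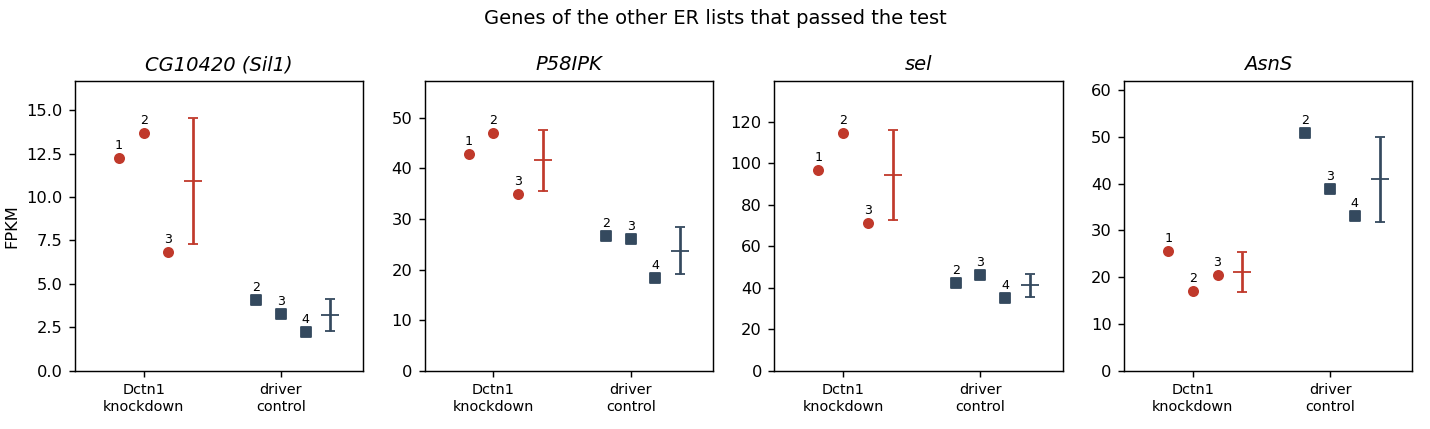
FPKM (vertical axis, from 0) of *CG10420* (*Sil1*), *P58IPK*, *sel* and *AsnS* in the 3 *Dctn1* knockdown libraries (circles) and the 3 driver control libraries (squares), labelled by replicate number, with the group mean and SD. *CG10420*, *P58IPK* and *sel* are higher and *AsnS* is lower in each knockdown library than in every control library.

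The remaining higher gene, *sel* (seele), encodes an ER protein known from dorsoventral patterning of the embryo. It was at 96.9, 114 and 71.4 FPKM in the knockdown libraries and at 42.1, 46.1 and 35.1 FPKM in the control libraries, which did not overlap. The log2 fold change of *sel* was 1.18 (SE 0.19, adjusted p = 0.0139) and 1.00 after median-of-ratios scaling (adjusted p = 0.0366). Without control library 2 the adjusted p was 0.0542, and without control library 4 it was 0.0512. The lowest value of the list belonged to *wbl* (windbeutel), another ER protein of dorsoventral patterning, at 9.88, 1.61 and 6.02 FPKM in the knockdown libraries and 15.3, 32.2 and 11.2 FPKM in the control libraries (log2 fold change -1.92, adjusted p = 0.226). The groups of *wbl* did not overlap, and its knockdown libraries differed among themselves by 6.14-fold.

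The eIF2alpha list contributed the only lower gene. *AsnS* encodes asparagine synthetase, which is a target of ATF4 in mammals. It was at 25.5, 17.1 and 20.5 FPKM in the knockdown libraries, against 50.8, 38.8 and 33.1 FPKM in the control libraries. Every knockdown library lay below every control (log2 fold change of *AsnS* -0.95, SE 0.20, adjusted p = 0.0337, and -1.13 with an adjusted p of 0.0222 after median-of-ratios scaling). The adjusted p of *AsnS* was 0.0993 without knockdown library 2, 0.0937 without knockdown library 3, 0.0957 without control library 2 and 0.0640 without control library 3. The other 13 genes tested on this list, among them *Gcn2*, *PPP1R15*, *Thor* and the *Xbp1* mRNA ligase gene *RtcB*, did not pass, and *Archease*, a cofactor of that ligase, had the highest log2 fold change, 0.50 (adjusted p = 0.134).

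The machines that move proteins into, modify and clear them from the ER showed 0 genes past the test in limma. Their counts of unadjusted p-values under 0.05 are to be read against 25.3% of all genes. Of 20 translocon, signal recognition and signal peptidase genes, 1 had an unadjusted p under 0.05, and log2 fold changes ran from -0.22 for *Srp14* to 0.33 for *Sec63*, a J-domain partner of Hsc70-3 in the channel (adjusted p = 0.162). The 7 subunits of the oligosaccharyltransferase, which adds sugar chains, stayed between -0.10 for *Ostgamma* and 0.07 for *CG33303*, with 0 unadjusted p under 0.05. Of 13 genes for ER-associated degradation, 4 had an unadjusted p under 0.05, and the list ran from -0.11 for the ATPase gene *TER94* to 0.41 for *Herp* (adjusted p = 0.128). *Herp*, a membrane scaffold of that pathway, was at 58.2, 64.8 and 50.9 FPKM in the knockdown libraries and at 48.2, 37.8 and 44.4 FPKM in the control libraries, which did not overlap. The 8 COPII genes for exit from the ER ran from -0.07 for *Sec24AB* to 0.31 for *Sec31*, and 1 had an unadjusted p under 0.05.

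The table also carries gene ontology terms, and 55 genes were annotated there with the unfolded protein response or the response to ER stress. Of the 52 tested, 2 were higher and 0 were lower by limma, or 3.85% against 6.71% of all genes. An unadjusted p under 0.05 was found for 13 of the 52, near the 25.3% of all genes. *BI-1*, the Bax inhibitor of the ER membrane, was at 108, 108 and 84.2 FPKM in the knockdown libraries and at 61.6, 67.7 and 57.1 FPKM in the control libraries, with no overlap (log2 fold change 0.68, adjusted p = 0.0345). The adjusted p of *BI-1* lay between 0.0868 and 0.128 without knockdown library 1 or 2 or control library 2 or 4, and was 0.0899 after median-of-ratios scaling. *Cbs*, the cystathionine beta-synthase gene, was at 16.8, 17.3 and 16.8 FPKM in the knockdown libraries and at 12.7, 11.6 and 12.1 FPKM in the control libraries (log2 fold change 0.48, adjusted p = 0.0375), but it lost the call without any 1 of the 6 libraries (adjusted p of 0.0645 to 0.165) and after median-of-ratios scaling (0.176). At the low end, *prtp*, a thioredoxin-domain gene also counted among the folding factors, had a log2 fold change of -0.51 (adjusted p = 0.128).

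Relatives of *Hsc70-3* outside the ER were tested for comparison. The constitutive cytosolic chaperone *Hsc70-4* was at 1499, 1461 and 1445 FPKM in the knockdown libraries and at 1119, 1020 and 939 FPKM in the control libraries, which did not overlap. In limma its log2 fold change was 0.52 (adjusted p = 0.0505), just short of the threshold, where that of *Hsc70-3* was negative. After median-of-ratios scaling *Hsc70-4* was at 0.34 (adjusted p = 0.185), and it passed in 0 of the 6 fits that left out a library. The mitochondrial *Hsc70-5* had a log2 fold change of 0.27 (adjusted p = 0.258). None of the 10 family members tested passed, and 3 had an unadjusted p under 0.05, against 25.3% of all genes. The stress-inducible *Hsp68* was at 50.7, 19.1 and 25.2 FPKM in the knockdown libraries and at 118.9, 92.1 and 68.9 FPKM in the control libraries, which did not overlap. The log2 fold change of *Hsp68*, -1.64 (adjusted p = 0.0683), was -1.82 after median-of-ratios scaling, where it passed (adjusted p = 0.0440). The heat-inducible *Hsp70* copies are nearly identical and share reads, so their single values, from -2.30 for *Hsp70Bbb* to 1.70 for *Hsp70Aa*, are uncertain.

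Finally, the genes whose level across the 6 libraries was most like that of a member were found by the root mean square difference of log2(FPKM + 0.1), each gene centred on its own mean. For *Hsc70-3* they were *CG7627* (0.05), *Rhp* (0.07) and *SelD* (0.08), where the median gene differed by 0.34. All of them were lowest in control library 4 and highest in control libraries 2 and 3, as shown by *SelD* with 26.5, 21.9 and 21.1 FPKM in the knockdown libraries and 29.6, 28.0 and 17.7 FPKM in the control libraries. For *Xbp1* they were *grk*, *tud* and *coro* (0.02 to 0.03), and for *crc* they were *CG5645*, *eIF-4a* and *CG4806* (0.03 each). *eIF-4a*, a translation initiation factor gene, was at 1772, 1753 and 1896 FPKM in the knockdown libraries and at 1428, 1508 and 1438 FPKM in the control libraries. None of these 9 genes is on the lists of ER genes by role.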

How the data were processed

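The deposited values are FPKM per gene and library, rounded to 2 decimals, which the authors obtained with RSEM after SOAPnuke filtering and HISAT2 alignment. The genome build and tool versions are not given in the sources used here. All 6 value columns were mapped to samples by title. For the 9978 genes whose FPKM averaged 0.5 or more, limma (version 3.58.1, R version 4.3.3) compared the groups on log2(FPKM + 0.1), using a trended and robust variance and Benjamini-Hochberg adjustment over all of them. The code was checked on simulated data. Members and lists were chosen with earlier results of these data known. The members were all named, with up to 6 genes a list that passed, the highest and lowest of each list, and the 3 genes most like *Hsc70-3*, *Xbp1* and *crc*. *Hsc70-4*, *Hsc70-5*, *Hsp68*, the markers and the ratios were named after their values were seen. Symbols were matched through RefSeq, which corrected *Sil1* to *CG10420*, and exon overlaps come from BDGP6.54. Alternatives were pseudocounts of 1 and 0.01, no filter, a mean of at least 5 FPKM, median-of-ratios scaling, quantile normalization, no trend and robustness, a replicate block and each library left out. Tables were made in Python version 3.11.15 with pandas version 2.3.3. Sequences were not analysed here.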

Additional observations from a re-analysis of the deposited data

How the results depend on the processing

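*Dctn1* passed the test under all 14 alternatives, from -1.04 to -0.89 with libraries left out in turn. Of 140 values for the 10 ER stress genes under alternatives, 129 kept their direction and side of the threshold, and 6 changed sign. The other 5 were all of *Ero1L*, which lost its call in 5 of the 14 alternatives. Among these was quantile normalization (limma, adjusted p = 0.0517). No other member passed in the main fit or under any alternative, so most of the 129 are values that stayed above the threshold. Genes passing numbered 324 with median-of-ratios scaling and 310 with quantile normalization, where 0 of the 10 members passed, and 265 to 457 with libraries left out, where 0 to 1 member passed. The members' median was -0.066 with median-of-ratios scaling. Of the 78 other ER genes, 4 passed, against 2 without trend and robustness and 1 to 2 with libraries left out. Signs turned for *Calr* (-0.0066 after median-of-ratios scaling, -0.0083 with the replicate block), *Xbp1* (-0.15 after median-of-ratios scaling, -0.015 under quantile normalization, and -0.035 to 0.071 with libraries left out, negative without control library 3) and *Pdi* (-0.13 with median-of-ratios scaling). The causes were not tested. The labels share 2 replicate numbers between groups, and deviations of same-numbered libraries had correlations of 0.40 (number 2) and 0.14 (number 3). Libraries with different numbers ran from -0.62 (knockdown 2 with control 3) to 0.63 (knockdown 1 with control 3). The numbers therefore do not show a pairing. In the replicate block, knockdown library 1 and control library 4 share no number with another library. Its differences therefore rest on libraries 2 and 3 of each group only. With this block 640 genes passed in limma, *Ero1L* among them (0.69, adjusted p = 0.0455). *Hsc70-3* was at -0.54 (adjusted p = 0.0850), and *sel* (adjusted p = 0.0880) and *P58IPK* (adjusted p = 0.0850) did not pass. By contrast, *wbl* (-2.79, adjusted p = 0.0214) and *prtp* (-0.74, adjusted p = 0.0474) did. *Hsp68* (adjusted p = 0.0260) also passed with the block, and of the midgut enzyme genes only *betaTry* and *LysB* did. Of the fat body genes, *Lsp1alpha* (1.56, adjusted p = 0.0259) and *Lsp1beta* (1.27, adjusted p = 0.0415) passed with it. Among the glue genes only *Sgs5* did (-2.10, adjusted p = 0.0435). Of the Hsp70 family outside the ER 0 genes passed in limma, 3 having an unadjusted p under 0.05, against 1 with median-of-ratios scaling, quantile normalization or a mean of at least 5 FPKM, 2 with the block and 0 to 1 with libraries left out.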
